A study of Homo sapiens with 8 samples.

Results

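The genes described here encode 9 MAP kinase phosphatases, DUSP1, DUSP2, DUSP4, DUSP5, DUSP6, DUSP7, DUSP8, DUSP10 and DUSP16, and the measurement is how open their chromatin was before and after hyperosmotic stress. Every peak of the deposited table that overlapped the body of a listed RefSeq gene, or the 20 kb on either side, was taken as a member, which gave 61 of the 129536 peaks. All 61 passed the filter on low counts. The genes held 11 (DUSP1), 7 (DUSP2), 6 (DUSP4), 8 (DUSP5), 2 (DUSP6), 6 (DUSP7), 4 (DUSP8), 6 (DUSP10) and 11 (DUSP16) peaks. The assay was Omni-ATAC-seq, where a transposase inserts adapters into open DNA, and the cells were HEK293, a human embryonic kidney line. All cells carried eGFP-YAP, a fluorescently tagged form of the transcriptional coactivator YAP, per the genotype field, whereas the titles name only HEK293. The vehicle group held 4 libraries, labelled 0 h and called vehicle 1 to 4. The sorbitol group held 4 libraries of cells kept in 0.2 M sorbitol for 1 h, called sorbitol 1 to 4. No vehicle library was labelled 1 h, so an effect of sorbitol cannot be told apart from an effect of time. The series description adds 1 h of serum starvation before the stress. A leading number in the library names was 1 for libraries 1 and 2 of each group and 2 for libraries 3 and 4. The labels do not say what it stands for, or whether the libraries came from separate cultures. The p-values therefore measure only the spread between these libraries, which may be technical.

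MAP kinases are activated by dual phosphorylation of a threonine and a tyrosine, and the dual-specificity phosphatases of this family remove both phosphates. The kinases p38 and JNK respond to stress such as a rise in osmolarity, and ERK responds mainly to growth factors. Several of the phosphatases are themselves switched on by the kinases they turn off, which makes them a negative feedback. DUSP1, DUSP2, DUSP4 and DUSP5 are inducible nuclear enzymes, DUSP6 and DUSP7 are cytoplasmic and prefer ERK, and DUSP8, DUSP10 and DUSP16 prefer JNK and p38.

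The RefSeq promoter table of GRCh38.p14 held windows for 7 of the 9 genes, not for DUSP4 or DUSP5. Each window runs from 250 bases before the annotated start to 50 after it. The peak at the gene start covered all 300 bases of the window at DUSP1, DUSP6, DUSP8, DUSP10 and DUSP16, 295 bases at DUSP7 and 281 at DUSP2. The 250 bases before the start are shown for the genes whose start peak rose (DUSP1, DUSP6 and DUSP8) and for those whose start peak fell (DUSP2 and DUSP7), since these peaks carry the main contrast below. At DUSP8 the start of the window lies inside the gene, whose 5′ end at 1572848 sets the peak distances below. The DUSP8 stretch is therefore within the gene body, and its motif distances are from the start of the window table. All lie on the minus strand and are written 5′ to 3′. Capitals mark the cAMP response element (CRE) TGACGTCA in DUSP1 and DUSP8, and the GC box GGGCGG or its reverse complement in DUSP2 and DUSP7, where 2 GC boxes of DUSP2 follow each other directly. DUSP1 and DUSP8 also hold 4 GC boxes each, and DUSP1 a TATAAA box, all left in lower case. The capitals therefore do not show a contrast in GC boxes between rising and falling genes. DUSP6 held none of the motifs searched.
DUSP1 (chr5:172771196-172771445): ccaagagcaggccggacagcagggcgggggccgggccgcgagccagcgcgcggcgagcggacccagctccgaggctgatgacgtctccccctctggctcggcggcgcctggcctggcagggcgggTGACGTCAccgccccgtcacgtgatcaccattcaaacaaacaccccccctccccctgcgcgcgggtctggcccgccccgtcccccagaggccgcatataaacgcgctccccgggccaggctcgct
DUSP8 (chr11:1572272-1572521): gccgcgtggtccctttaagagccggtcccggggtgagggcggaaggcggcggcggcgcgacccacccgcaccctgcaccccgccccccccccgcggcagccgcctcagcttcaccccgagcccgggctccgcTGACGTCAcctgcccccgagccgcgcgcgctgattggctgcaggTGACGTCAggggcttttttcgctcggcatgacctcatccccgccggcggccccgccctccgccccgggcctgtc
DUSP6 (chr12:89352502-89352751): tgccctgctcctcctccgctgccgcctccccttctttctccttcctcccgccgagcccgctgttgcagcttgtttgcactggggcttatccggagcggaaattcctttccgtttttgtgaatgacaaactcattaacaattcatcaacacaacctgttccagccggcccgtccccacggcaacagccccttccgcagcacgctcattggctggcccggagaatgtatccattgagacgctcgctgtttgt
DUSP2 (chr2:96145441-96145690): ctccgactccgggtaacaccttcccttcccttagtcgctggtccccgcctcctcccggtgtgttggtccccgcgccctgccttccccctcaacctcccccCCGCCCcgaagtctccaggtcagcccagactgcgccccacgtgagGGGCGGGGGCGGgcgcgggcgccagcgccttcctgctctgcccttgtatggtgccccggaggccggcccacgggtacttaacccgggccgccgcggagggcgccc
DUSP7 (chr3:52056572-52056821): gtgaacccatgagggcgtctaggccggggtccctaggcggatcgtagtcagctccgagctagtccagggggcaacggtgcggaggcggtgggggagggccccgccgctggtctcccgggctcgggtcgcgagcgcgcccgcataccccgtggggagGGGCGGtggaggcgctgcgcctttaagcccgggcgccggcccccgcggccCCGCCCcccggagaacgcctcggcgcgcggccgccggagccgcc

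The CRE, the site bound by CREB and ATF family factors, was found once in the DUSP1 window, beginning 125 bases before the start, and in 2 copies in the DUSP8 window, beginning 118 and 74 bases before it. It was present in 1.85% of the 35116 promoter windows of the table. The GC box was found in the windows of DUSP1, DUSP2, DUSP7, DUSP8, DUSP10 and DUSP16, and in 45.0% of all windows. A TATAAA box began 30 bases before the start of DUSP1 and was in none of the other 7 windows of these genes (DUSP10 has a pair of windows), against 11.5% of all windows. Matches were sought on both strands. The AP-1 site TGANTCA, the ETS site CCGGAAG, the TEAD site GGAATG, the serum response element (CArG box) and the tonicity element had no match in these windows, and were found in 7.71%, 10.3%, 14.0%, 1.29% and 4.92% of all windows. GC boxes of DUSP1 lay next to its CRE without overlapping it.

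Libraries held 11522266 to 19831471 counts in peaks, and values below are CPM, counts per 1000000 of that total scaled by its TMM factor. Vehicle 4 and sorbitol 4 stood apart from their groups. The median log2 deviation of 477 peaks on unplaced and unlocalized contigs was 0.35 in vehicle 4 and -0.32 in sorbitol 4, against -0.26 to -0.02 in the other vehicle libraries and 0.05 to 0.23 in the other sorbitol libraries. Calls that were lost without these 2 libraries are named beside each result. Among genes listed as kidney or HEK293 markers, LHX1, EYA1 and SALL1 had a peak within 1 kb of an end and PAX2 and PAX8 had none. Of 6 marker genes of other cell types, PTPRC and MYOD1 had such a peak, with up to 1.19 and 23.6 CPM in vehicle, and CD3E, ALB, CDH5 and INS had none.

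After sorbitol, chromatin at the phosphatase genes changed gene by gene. The loci of DUSP5, DUSP1 and DUSP6 gained accessibility, that of DUSP7 lost it, and that of DUSP16 had no peak past the test. The gains were not equally firm. Both DUSP6 calls, of 0.25 and 0.26 on the log2 scale, were lost in some fits without 1 library. At DUSP1, 4 of 11 peaks were called, and the start call was lost without vehicle 4 and sorbitol 4 together. In the quasi-likelihood fit of edgeR, with p-values adjusted by Benjamini-Hochberg over all 129487 tested peaks and a threshold of 0.05, 24 of the 61 peaks changed (39.3%), against 29.1% of all tested peaks. Higher peaks numbered 17 (27.9%, against 16.0% of all tested peaks) and lower peaks numbered 7 (11.5%, against 13.1%). The share of lower peaks was thus near the background. Changes of at least 2-fold were found at 4 peaks (6.56%, against 6.15%), which is also near it. The median log2 fold change was 0.09 over the members and 0.01 over all tested peaks. By strength, 42 of the 61 members had a mean CPM at or over the median of all tested peaks (3.02). Of these 42, 45.2% were called, against 26.3% of the 19 under it. The shares over all tested peaks are not matched for strength. The 4 libraries of a group lay beyond all 4 of the other at 25 member peaks, and at 26.3% of all tested peaks. Scaled by library totals alone, 22 members were higher and 5 lower, while 20.2% of all tested peaks were higher and 9.77% lower. With TMM factors from gene-end peaks, which moved the median of all peaks from 0.01 to 0.19, 25 members were higher and 3 lower, against 26.3% and 6.7% of all tested peaks. In bulk libraries a change in the share of cells with an open site cannot be told apart from a change in how open it is in each cell.

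**Figure D1:**
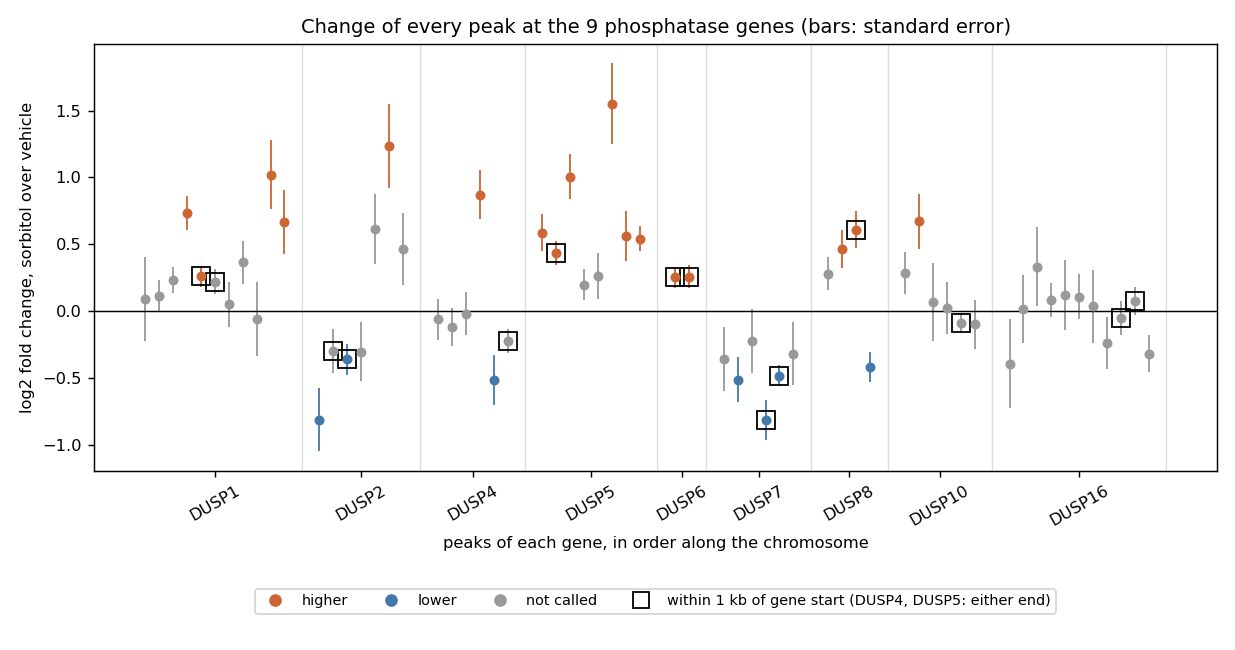
Log2 fold change of each of the 61 peaks (sorbitol over vehicle, y axis) with its standard error, in order along the chromosome within each gene (x axis). Orange peaks were higher, blue peaks lower and grey peaks not called, and black squares mark peaks within 1 kb of the gene start, or of either end for DUSP4 and DUSP5; all 8 DUSP5 values lie above 0 and all 6 DUSP7 values below it.

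Peaks at the gene starts gave the clearest contrast between genes. A start peak is the strongest peak within 1 kb of the 5′ end. DUSP4 and DUSP5 had no strand in the tables, so either end was accepted. Of these 9 peaks, 4 were higher (DUSP1, DUSP5, DUSP6 and DUSP8), 2 were lower (DUSP2 and DUSP7) and 3 did not pass the test (DUSP4, DUSP10 and DUSP16). With the weaker neighbours within the same 1 kb included, 14 peaks lay at these ends, of which 5 were higher (35.7%) and 3 lower (21.4%). Over all tested peaks within 1 kb of an end of any RefSeq gene, 8.75% were higher and 32.8% lower, and the median was -0.17 on the log2 scale. Without vehicle 4 and sorbitol 4, 2 of the 9 were higher, DUSP5 and DUSP8, and 2 were lower.

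**Figure D2:**
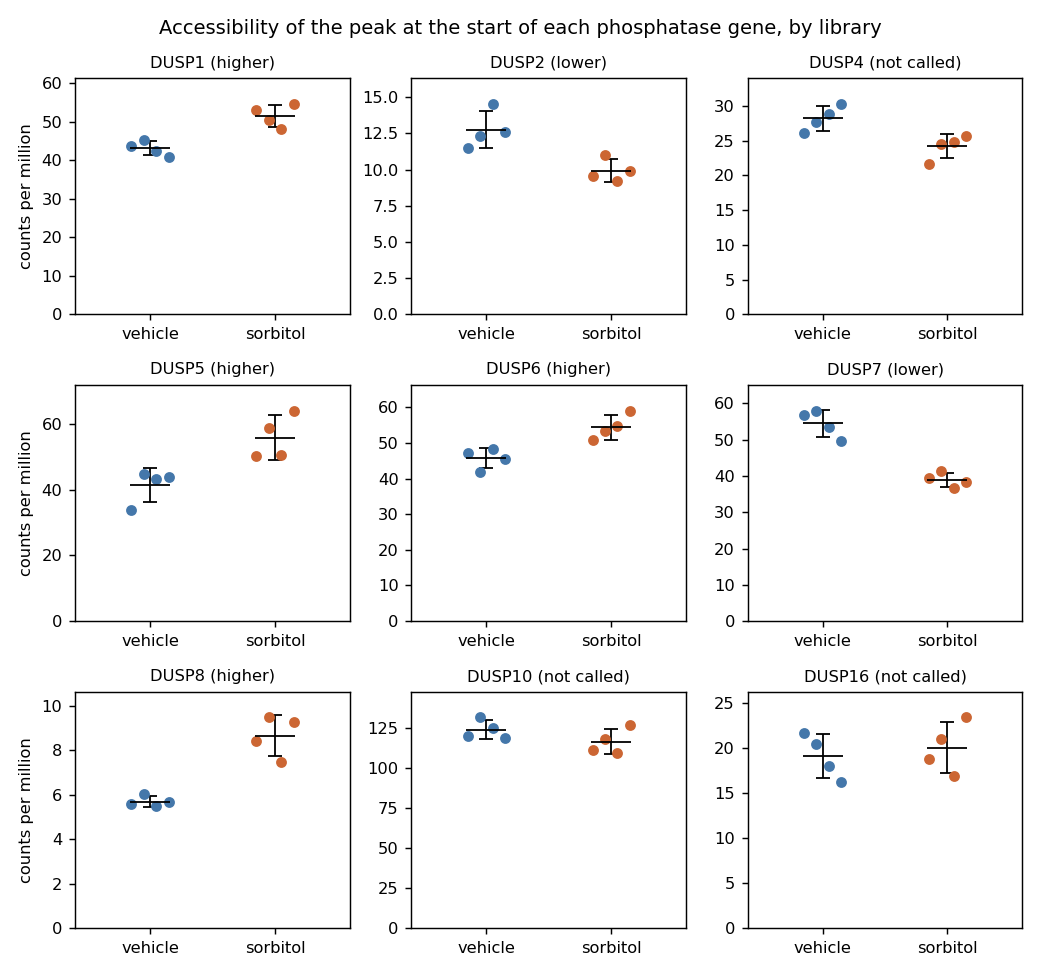
Accessibility in CPM (y axis, from 0) of the peak at the start of each gene in the 4 vehicle libraries (blue) and the 4 sorbitol libraries (orange), with the mean and SD in black. The libraries of the groups do not overlap except at DUSP10 and DUSP16; at DUSP4 they do not overlap either, but the test was not passed.

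Among the nuclear inducible phosphatases, 12 of 32 peaks were higher (37.5%, against 16.0% of all tested peaks) and 3 lower (9.38%, against 13.1%). Of the higher peaks, 4 lay at DUSP1 and 6 at DUSP5. The log2 fold changes of the 32 peaks had a median of 0.25. DUSP1, an immediate early gene whose product turns off p38 and JNK, lies on chromosome 5 at 172768096 to 172771195. Its start peak (172770480 to 172771616) had 43.7, 45.2, 42.5 and 40.9 CPM in vehicle 1 to 4 and 52.9, 50.5, 48.0 and 54.6 CPM in sorbitol 1 to 4. Every sorbitol library was above every vehicle library, and the means rose from 43.1 ± 1.82 to 51.5 ± 2.88 CPM (SD, n = 4). The log2 fold change was 0.26 (standard error 0.08, edgeR adjusted p = 0.0112). This peak also lies within 1 kb of an end of LOC105377730. The call was kept in each of the 8 fits that leave out 1 library, but without vehicle 4 and sorbitol 4 together the value was 0.19 with an adjusted p of 0.0634.

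A peak 4.6 kb downstream of the DUSP1 start and beyond its 3′ end (172766326 to 172766780) changed more. It had 6.73, 6.57, 7.17 and 6.50 CPM in vehicle and 9.66, 11.4, 10.8 and 13.0 CPM in sorbitol, which is a log2 fold change of 0.73 (standard error 0.13, edgeR adjusted p = 1.78e-05). A weak peak 15.6 kb upstream (172786689 to 172786964) had 1.09 to 1.71 CPM in vehicle and 2.06 to 3.26 CPM in sorbitol, with a log2 fold change of 1.02 (edgeR adjusted p = 0.00176). Neither set of libraries overlapped the other at these peaks. The remaining call, 18.4 kb upstream (172789369 to 172789729), had groups that overlapped and was lost in 5 of the 8 fits without 1 library, with adjusted p-values of 0.0589 to 0.164 (those without sorbitol 2, sorbitol 3, vehicle 2, vehicle 3 or vehicle 4). The other 7 DUSP1 peaks had log2 fold changes of -0.06 to 0.36. The summed accessibility of the 11 peaks was 119 to 123 CPM in vehicle and 135 to 156 CPM in sorbitol.

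DUSP5, a nuclear phosphatase that acts on ERK and holds it in the nucleus, had 6 of 8 peaks higher and none lower. This is 75% higher, against 16.0% higher and 13.1% lower of all tested peaks. DUSP5 had the most calls at any of the 9 genes, and a median log2 fold change of 0.55. The gene lies on chromosome 10 at 110497907 to 110511533. The peak at its left end (110497312 to 110498588), which also lies within 1 kb of an end of the divergent transcript DUSP5-DT, had 33.8, 44.9, 43.1 and 43.8 CPM in vehicle and 50.1, 58.8, 50.4 and 64.0 CPM in sorbitol. Vehicle 1 was low, yet all sorbitol libraries lay above all vehicle libraries. The log2 fold change was 0.43 with standard error 0.09 (edgeR adjusted p = 0.000177), and it was 0.37 without vehicle 4 and sorbitol 4 (adjusted p = 0.000239).

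Inside DUSP5, 1.8 kb from the left end, a narrow peak (110499550 to 110499785) went from 3.20, 3.80, 4.02 and 2.87 CPM to 7.25, 6.22, 5.69 and 8.86 CPM. The log2 fold change was 1.01 (standard error 0.17), and its edgeR adjusted p of 7.82e-06 was the smallest of the 61 peaks. Its neighbour inside the gene (110501179 to 110501657) had 0.20 and did not pass the test. Beyond the right end, by 2.6 kb, a weak peak (110514051 to 110514293) had 0.544, 0.602, 0.774 and 1.23 CPM in vehicle and 2.50, 2.02, 2.09 and 2.61 CPM in sorbitol, the largest log2 fold change among the members (1.55, standard error 0.30, edgeR adjusted p = 8.94e-05). A stronger peak 18.9 kb beyond that end (110529912 to 110530896) went from 19.7 to 23.3 CPM in vehicle to 28.1 to 34.6 CPM in sorbitol (log2 fold change 0.54, edgeR adjusted p = 9.88e-06). The groups did not overlap at any of these 3 called peaks. A peak 14.0 kb to the left (110483584 to 110484200), inside DUSP5-DT, rose by 0.59 on the log2 scale, and a peak 11.0 kb to the right (110522228 to 110522777) by 0.56. The latter was lost without sorbitol 4 (edgeR adjusted p = 0.0598), without vehicle 1 (0.0877) and without both libraries numbered 4 (0.101).

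**Figure D3:**
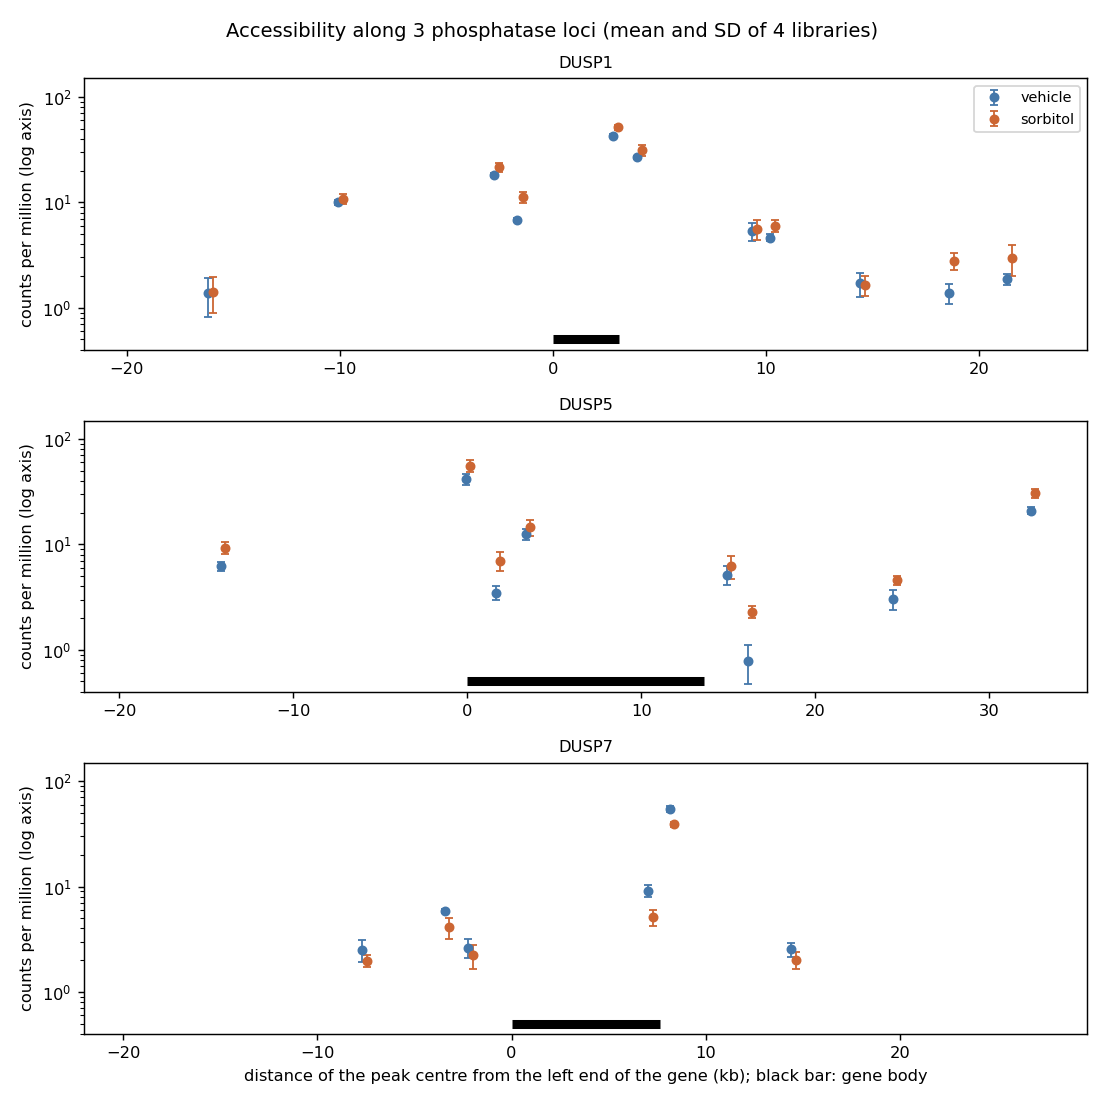
Mean and SD of CPM over 4 libraries (y axis, log scale) for each peak of DUSP1, DUSP5 and DUSP7, against the distance of its centre from the left end of the gene in kb (x axis). The black bar is the gene body; sorbitol means (orange) lie above vehicle means (blue) at every DUSP5 peak and below them at every DUSP7 peak.

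DUSP2, a nuclear phosphatase known mainly from blood cells, lies on chromosome 2 at 96143169 to 96145440 and moved both ways. Its start peak (96144842 to 96145671) had 11.5, 12.3, 14.5 and 12.6 CPM in vehicle and 9.58, 11.0, 9.21 and 9.90 CPM in sorbitol, with no overlap. This gave a log2 fold change of -0.36 (standard error 0.12, edgeR adjusted p = 0.0158). The call was lost without vehicle 3 (-0.29, adjusted p = 0.0944), with library totals alone (0.0583), with a loess offset (0.0539) and with gene-end factors (-0.19, 0.209). A peak within 1 kb of an end of ASTL, the neighbouring gene for an egg protease (96138726 to 96139029), fell by 0.81 on the log2 scale, from 2.65 to 3.67 CPM to 1.33 to 2.49 CPM (edgeR adjusted p = 0.00699). In the other direction, a weak peak 12.3 kb upstream of DUSP2 (96157609 to 96157814) had 0.884, 0.783, 0.722 and 1.09 CPM in vehicle and 1.42, 1.32, 3.10 and 2.34 CPM in sorbitol. Sorbitol 3 and 4 were the high libraries there, and the log2 fold change was 1.24 with standard error 0.32 (edgeR adjusted p = 0.00218). The other 4 DUSP2 peaks had log2 fold changes of -0.31 to 0.61.

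DUSP4, a nuclear phosphatase of ERK and JNK, lies on chromosome 8 at 29333064 to 29350684. The broad peak at its right end (29349728 to 29351334) had 26.1, 27.7, 28.8 and 30.3 CPM in vehicle and 21.7, 24.6, 24.8 and 25.7 CPM in sorbitol. The groups did not overlap, but the log2 fold change of -0.22 had an edgeR adjusted p of 0.0561. This peak also overlaps LOC124901924 and lies within 1 kb of an end of it. The peak passed the test with DESeq2 size factors (0.0450), with a block for the leading number in the library names (0.0496), without sorbitol 4 (0.0301) and without vehicle 1 (0.0497). The value shrank to -0.14 (0.22) with library totals alone, -0.07 (0.542) with a loess offset and -0.05 (0.701) with gene-end factors. Inside the gene, 1.8 kb from that end, the peak from 29348681 to 29349140 had 1.84, 3.61, 3.46 and 3.28 CPM in vehicle and 5.08, 5.68, 5.44 and 6.25 CPM in sorbitol. It rose by 0.87 on the log2 scale (standard error 0.18, edgeR adjusted p = 0.000269), and all sorbitol libraries were above all vehicle libraries. Its immediate neighbour (29349191 to 29349536) was lower instead, with a log2 fold change of -0.52 (adjusted p = 0.0285). Groups overlapped at this neighbour, and its call was lost without sorbitol 1, sorbitol 3, vehicle 3 or vehicle 4 (adjusted p = 0.0600 to 0.138) and without both libraries numbered 4 (0.148).

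The cytoplasmic ERK phosphatases went in opposite directions. DUSP6, the feedback phosphatase of ERK, lies on chromosome 12 at 89347235 to 89352501 and had a pair of adjoining peaks, both at its start. The stronger (89351597 to 89353006) had 47.3, 41.8, 48.3 and 45.6 CPM in vehicle and 50.7, 53.3, 54.7 and 59.1 CPM in sorbitol, or 0.25 on the log2 scale (standard error 0.08, edgeR adjusted p = 0.0141). The other (89353068 to 89354260) rose by 0.26 (adjusted p = 0.0179). The groups did not overlap at either peak. The call at the stronger was lost without sorbitol 4 (adjusted p = 0.0591), without vehicle 2 (0.0736) and without both libraries numbered 4 (0.0583), with log2 fold changes of 0.20 to 0.21. That at the other was lost without sorbitol 2, sorbitol 4, vehicle 1 or vehicle 3 (0.0580 to 0.0724). The table also lists a read-through gene, POC1B-DUSP6, which overlaps both peaks.

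DUSP7, a close relative of DUSP6, lies on chromosome 3 at 52048919 to 52056571, and all 6 of its peaks had negative log2 fold changes, 3 of them past the test. This is 50% lower, against 13.1% of all tested peaks. The 3 called peaks all lie within 1 kb of a gene end, a class with 32.8% lower. Its start peak (52056527 to 52057842) had 56.7, 58.0, 53.4 and 49.7 CPM in vehicle and 39.4, 41.4, 36.7 and 38.3 CPM in sorbitol. The lowest vehicle library was well above the highest sorbitol library, and the means fell from 54.4 ± 3.72 to 38.9 ± 1.97 CPM (SD, n = 4). The log2 fold change was -0.48 with standard error 0.08 (edgeR adjusted p = 8e-06). It ranged from -0.53 to -0.29 over 19 alternatives and passed the test in each. A narrower peak just inside the gene (52055847 to 52056283) had 9.05, 8.98, 7.74 and 10.7 CPM in vehicle and 5.66, 4.59, 4.18 and 6.12 CPM in sorbitol (log2 fold change -0.82, edgeR adjusted p = 2.98e-05). A peak 3.3 kb beyond the other end of the gene (52045305 to 52045881), at an end of LOC124906238, had -0.51 (adjusted p = 0.0166), which was lost without sorbitol 3 (-0.39, 0.0920). The remaining 3 peaks had -0.36 to -0.23.

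The ratio of DUSP6 to DUSP7 start-peak counts within a library does not depend on how libraries are scaled. It was 0.834, 0.721, 0.904 and 0.917 in vehicle 1 to 4 and 1.29, 1.29, 1.49 and 1.54 in sorbitol 1 to 4. The ratio was thus below 1 in every vehicle library and above 1 in every sorbitol library. This pair of genes was taken for its shared role with its values known, so no test is given, and the level of the ratio also reflects peak widths of 1410 and 1316 bp.

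Among the phosphatases that prefer JNK and p38, 3 of 21 peaks were higher (14.3%, near the 16.0% of all tested peaks) and 1 lower (4.76%, against 13.1%). Their log2 fold changes had a median of 0.07. DUSP8 lies on chromosome 11 at 1554051 to 1572848. Its start peak (1572178 to 1572745), which holds the 2 CRE copies printed above, had 5.58, 6.02, 5.47 and 5.68 CPM in vehicle and 8.41, 9.48, 7.45 and 9.28 CPM in sorbitol. The vehicle libraries were tightly grouped, and all sorbitol libraries lay above them. On the log2 scale the rise was 0.61 (standard error 0.14, edgeR adjusted p = 0.000711), and 0.56 without both libraries numbered 4 (adjusted p = 0.00499). Outside the gene, 1.6 kb upstream of its 5′ end, the strongest peak of the locus (1573955 to 1574979) changed the other way, from 15.9, 12.5, 13.7 and 14.3 CPM to 10.3, 9.72, 11.9 and 10.2 CPM. The log2 fold change was -0.42 (standard error 0.12, edgeR adjusted p = 0.00437), and the call was lost only with gene-end factors among the alternatives (-0.24, 0.0942). Both peaks overlap the antisense transcript KRTAP5-AS1, and ATAC-seq carries no strand. A peak inside DUSP8 (1564418 to 1565021) rose by 0.46 (adjusted p = 0.0110) and was lost without sorbitol 1 (0.0528), without vehicle 2 (0.0516) and without both libraries numbered 4 (0.0519).

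DUSP10, a phosphatase of p38 and JNK, lies on chromosome 1 at 221701424 to 221742089 and had the strongest and widest peak of the family at its start (221741381 to 221743503, 2123 bp). It held 119.6, 131, 125 and 119 CPM in vehicle and 111, 118, 109 and 127 CPM in sorbitol. The groups overlapped, and the log2 fold change of -0.09 had an edgeR adjusted p of 0.389. The sign turned with gene-end factors (0.09) and with a loess offset (0.14), neither past the test. Per kb of peak width the start peaks of DUSP10, DUSP7 and DUSP1 had 58.2, 41.4 and 37.9 CPM in vehicle, and that of DUSP8 had 10.0. A weak peak inside DUSP10 (221718352 to 221718678) went from 1.91 to 2.83 CPM in vehicle to 3.10 to 4.58 CPM in sorbitol (log2 fold change 0.67, edgeR adjusted p = 0.0111). The call was lost without sorbitol 1 (0.0523) and without vehicle 3 (0.0569). The other 4 peaks of the locus had log2 fold changes of -0.10 to 0.29.

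DUSP16, a JNK phosphatase, lies on chromosome 12 at 12473282 to 12562863 and is the longest gene of the family (89582 bp). None of its 11 peaks passed the edgeR test, which 29.1% of all tested peaks passed. Log2 fold changes ranged from -0.39 to 0.33 with adjusted p-values of 0.0680 to 0.972. The start peak (12562512 to 12563212) had 21.6, 20.4, 18.0 and 16.1 CPM in vehicle and 18.7, 21.0, 16.9 and 23.4 CPM in sorbitol. These groups overlapped widely, and the log2 fold change was 0.08 with standard error 0.10. It passed the test only with gene-end factors (0.25, adjusted p = 0.0418) and was negative without sorbitol 4 (-0.02) or without both libraries numbered 4 (-0.09). The peak with the smallest p lay 1.3 kb upstream (12563918 to 12564349), with 7.41 to 9.78 CPM in vehicle and 6.53 to 8.24 CPM in sorbitol, a log2 fold change of -0.32 and an adjusted p of 0.0680. Without vehicle 1 this became -0.40 (0.0316), and without sorbitol 2 it was -0.38 (0.0495). The summed accessibility of the 11 peaks averaged 64.3 ± 1.91 CPM in vehicle and 63.6 ± 3.46 CPM in sorbitol (SD, n = 4).

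By location, 7 of the 17 member peaks between genes were higher and none lower, against 16.0% and 8.05% of all tested peaks of that class. Apart from a weak peak of DUSP2, these higher peaks all lay at DUSP1 and DUSP5, so they repeat calls given above. Of 25 peaks inside genes, 5 were higher and 2 lower (20% and 8%, against 18.9% and 8.58%), which is near the background. Of 19 peaks within 1 kb of an end of any gene, 5 were higher and 5 lower (26.3% each). Among all tested peaks of that class, 8.75% were higher and 32.8% lower. Of the 61 peaks, 19 overlap another RefSeq gene or lie within 1 kb of its end.

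The other genes of the pathway were described with the same window. The MAP kinases and their activators comprised 31 genes and 286 peaks. Of these peaks, 26 were higher (9.09%, against 16.0% of all tested peaks) and 63 lower (22%, against 13.1%). The median was -0.08, and 14 of the 26 higher peaks lay at MAPK10. Beside 32.8% lower and 8.75% higher of all tested gene-end peaks, 16 of the 31 start peaks were lower, 1 higher and 14 not called. The lower ones included MAPK14, the p38 kinase of most tissues, with -0.54 (edgeR adjusted p = 4.45e-05), MAPK9, which encodes JNK2, with -0.29 (0.00293), and MAP3K11 with -0.78 (3.26e-10). The higher one was MAPK3, which encodes ERK1, with 0.57 (edgeR adjusted p = 0.000139). The start peak of MAPK8, which encodes JNK1, had -0.10 (0.386).

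Other negative regulators (14 genes, 97 peaks) had 11 peaks higher (11.3%, against 16.0% of all tested peaks) and 23 lower (23.7%, against 13.1%). Their median was -0.08. Of the 11 genes with a start peak, 2 were higher and 6 lower, beside 8.75% and 32.8% of all tested gene-end peaks. The higher ones were DUSP9 and PTPN5. DUSP9, a further member of the dual-specificity family, went from 6.14 ± 0.860 to 8.63 ± 0.733 CPM (SD, n = 4; log2 fold change 0.49, edgeR adjusted p = 0.00571), and PTPN5, a tyrosine phosphatase of MAP kinases, from 10.4 ± 0.719 to 17.2 ± 2.03 CPM (0.72, 1.52e-06). Start peaks of PPM1B and PPM1D, serine/threonine phosphatases of stress kinase pathways, were lower (-0.45 and -0.39, edgeR adjusted p = 2.36e-05 and 0.000487). Those of SPRY1 and SPRED1, inhibitors upstream of ERK, were also lower (-0.25 and -0.30, edgeR adjusted p = 0.00977 and 0.0144), and that of SPRY2 had 0.05 (0.713). The kinases downstream (11 genes, 119 peaks) had 20 peaks higher (16.8%, near the 16.0% of all) and 23 lower (19.3%, against 13.1%). Their median was 0.07, and 15 of the 20 higher peaks lay at RPS6KA2. No test of these lists against the phosphatases was made.

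**Figure D4:**
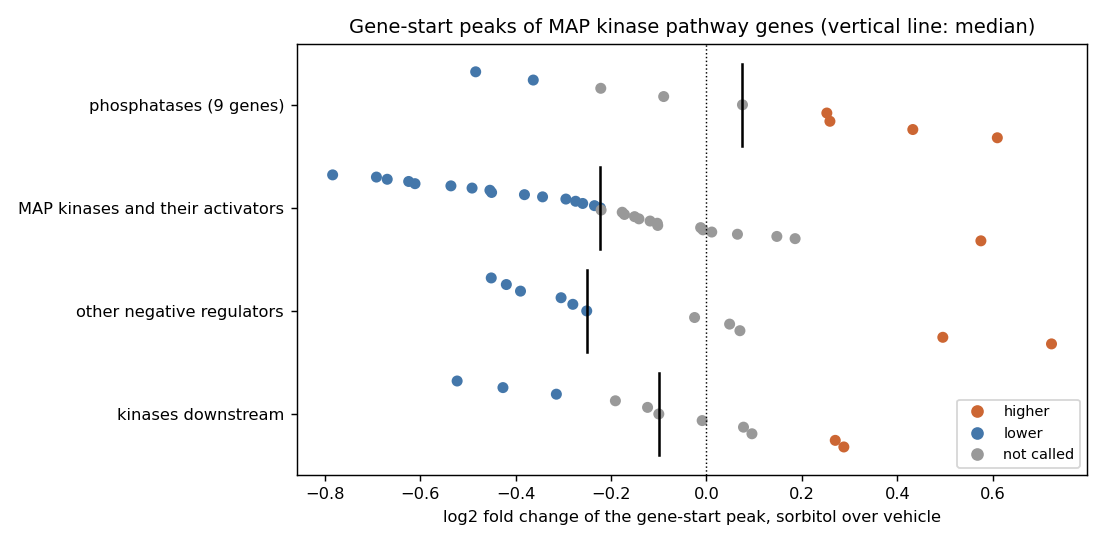
Log2 fold change (sorbitol over vehicle, x axis) of the start peak of each gene, for the 9 phosphatases and 3 lists of pathway genes (rows), with orange for higher, blue for lower and grey for not called; the vertical line is the median of each row. The medians are 0.08 for the 9 phosphatases, -0.22 for the kinases and their activators, -0.25 for other negative regulators and -0.10 for kinases downstream. For all tested peaks within 1 kb of an end of any gene, which are not only start peaks, the median was -0.17.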

How the data were processed

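Accessibility was measured by ATAC-seq in 4 vehicle and 4 sorbitol libraries (75 bp paired-end reads, 50000 cells each, per the labels' protocols). The authors deposited raw counts per peak for shared peaks. The submitters' processing notes name Trim Galore 0.6.10, BWA 0.7.17, SAMtools 1.22, Picard, MACS2 2.2.9.1, bedtools, deepTools 3.5.4 and DESeq2 and the build GRCh38, without roles, and whether reads or fragments were counted is not given in the sources used here. Starts in the table count from 0 and are printed 1-based. Counts of 129536 peaks were filtered with edgeR's filterByExpr (minimum 10, total 15), leaving 129487, scaled by TMM and tested with the edgeR 4.0.16 quasi-likelihood test in R 4.3.3, with treatment as the only term and Benjamini-Hochberg adjustment over all tested peaks. Standard errors are the log2 fold change divided by the root of F. On simulated counts for 129487 peaks the test recovered 63 of 100 changes of 2-fold and 93 of 100 of 3-fold, with 11 false calls. The simulation changed only 100 peaks at each fold, far fewer than the 37717 called in the data, so its rates need not hold there. Named peaks are, per gene, the start peak, that of smallest p and that of highest mean, and all called peaks of at least 2-fold, 18 in all; called peaks outside this rule were named after their values were seen. The members and lists were chosen with earlier results of these data known. PCR duplicates are not independent molecules. Gene positions and promoter windows are from RefSeq, GRCh38.p14. Same-numbered libraries did not deviate together (correlations -0.15 to 0.01), so the numbers were not used as pairs. Alternatives were DESeq2 1.42.0, its size factors, other scalings, filters, blocks, windows and left-out libraries; leaving out both libraries numbered 4 was chosen after seeing the data.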

Additional observations from a re-analysis of the deposited data

Results flagged for a closer look

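In 2 of 36 groups of 4 libraries at the named peaks, 1 library lay far from the other 3, where chance alone gives about 1.8. At the DUSP5 end peak on chromosome 10 (110497312 to 110498588), vehicle 1 was low, at 33.8 CPM, while the other 3 lay between 43.1 and 44.9. Without vehicle 1 the peak still passed the edgeR test. At the peak upstream of DUSP16 on chromosome 12 (12563918 to 12564349), vehicle 1 had 7.41 CPM against 9.49 to 9.78. Without it the log2 fold change moved from -0.32 to -0.40, with an edgeR adjusted p of 0.0316.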

How the results depend on the processing

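The 24 calls (17 higher, 7 lower, 4 of at least 2-fold) became 14 (10 higher, 4 lower, 4 of at least 2-fold) at an adjusted threshold of 0.01. The threshold itself accounts for the loss. At 0.01, 16.4% of members were higher and 6.56% lower, against 9.45% and 8.52% of all tested peaks. With windows of 50 kb the counts were 40 of 104 peaks (27 higher, 13 lower, 8 of at least 2-fold). With windows of 5 kb, 11 of 42 were higher and 2 changed at least 2-fold. Both follow from the number of peaks taken. Gene-end factors gave 3 lower peaks (4.92%, against 6.7% of all tested peaks). A mean of at least 50 counts, which left 40 members, gave 1 change of at least 2-fold. With that filter 40.0% of members were higher and 12.5% lower, against 17.7% and 19% of all peaks tested there. Fits without 1 library gave 19 to 24 calls, 14 to 19 higher, 5 to 9 lower and 2 to 5 of at least 2-fold. Of the 24 calls, 15 were kept in all 8 of these fits and 19 without both libraries numbered 4, and none was called in the opposite direction in any alternative. With the replicate number as a block, 23 peaks were called (16 higher, or 26.2%, and 7 lower, or 11.5%), all among the 24. Shares over all tested peaks in that fit were 14.5% and 12.1%. The replicate block changed no call at the 18 named peaks. Among the 18 named peaks, the sign changed at 2 uncalled start peaks, DUSP10 (0.09 with gene-end factors, 0.14 with the loess offset) and DUSP16 (-0.02 without sorbitol 4, -0.09 without both libraries numbered 4); the cause was not tested. The weakest members, near 1 CPM, limit what could be detected.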
